A study of Arabidopsis thaliana with 6 samples.

Results

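NRPB genes encode the subunits of RNA polymerase II of Arabidopsis thaliana, and 6 of them are described here in whole plants of a wild type and of an rli mutant. They were chosen by symbol, as the probe sets of the ATH1 array (a short-oligonucleotide array read by biotin label) whose single gene in the array's gene table has a symbol starting with NRPB. This gave NRPB6A, NRPB6B, NRPB7, NRPB9A, NRPB9B and NRPB12, 6 of 22746 probe sets that are not controls. The family was proposed because its members stood lower in rli in an earlier reading of the same arrays. The comparison of rli with wild type is therefore given for these genes as a description. Counts of members past a threshold come from the fit over all probe sets, are printed only beside the share of all probe sets past it, and are no independent test.

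The series holds 6 arrays, 3 of wild type (WT) and 3 of a mutant labelled as carrying a T-DNA insertion in RLI. RLI, also called ABCE, is an ATP-binding protein that recycles ribosomes, and the title of the series asks about its effect on RNA stability. The arrays read how much of a transcript was present, not how fast it decayed. All plants grew on soil, several to a pot, were taken whole with rinsed roots, and share the source name Co-1 and 1 stock code. The developmental stage label is 3.20 for WT and 1.14 for rli, with weeks as the unit. The numbers may be growth stage codes and are not read as ages here. The label differs exactly as genotype does, so genotype and stage cannot be told apart. Beyond the shared source name and stock code, nothing in the labels says whether mutant and WT share a background. Nor do they say which RLI gene carries the insertion, or whether the arrays of a group came from separate plants. Any spread between arrays may therefore be technical.

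RNA polymerase II makes messenger RNA; it is built of many subunits. Some subunits belong to it alone, and others are shared with polymerases I and III, which make ribosomal and small RNAs, and in plants with polymerases IV and V, which serve RNA-directed DNA methylation. Plants carry several of these subunits as duplicated genes, as the A and B copies of NRPB6 and NRPB9 show. The reference gene table lists 15 loci with an NRPB symbol. Those of the 2 largest subunits, NRPB1 and NRPB2, which together form the active centre, and of NRPB4, NRPB5, NRPB8A, NRPB8B, NRPB10 and NRPB11 had no probe set named here and were not analysed here. NRPB3 shares 1 probe set with NRPE3B, its close copy, and falls outside the rule. It is given at the end of the members' values.

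Values are MAS5 intensities as deposited, on a linear scale, and differences are rli minus WT on the log2 scale with the standard error of a limma fit across all tested probe sets (n = 3 arrays per group). The tested set held the 13648 probe sets whose average log2 intensity reached the 40th percentile, an intensity of 24.7, called the filter level below. All 6 members were tested, NRPB9A only through its WT values. In this fit 928 probe sets, or 6.80%, had an adjusted p under 0.05, 583 of them higher and 345 lower in rli. WT replicate 3 stood apart. Its correlation with the other 2 WT arrays over all probe sets was 0.76 with each, against 0.92 between those 2. With rli replicates 1, 2 and 3 it correlated at 0.77, 0.75 and 0.79, so it stood no closer to its own group than to rli. WT replicates 1 and 2 correlated with the rli arrays at 0.85 to 0.89. The 25S ribosomal RNA control of WT replicate 3 read 1927, against 285.2 and 344.3 on WT replicates 1 and 2 and a range of 863.1 to 1319 in rli. The log2 ratio of the 3′ to the 5′ end of the GAPDH and ubiquitin control transcripts, which rises as RNA is broken or labelled short, was 3.19 on that array, 1.93 and 2.20 on the other WT arrays and 2.18 to 2.53 in rli. Its group means, 2.44 ± 0.66 (SD, n = 3) in WT and 2.41 ± 0.19 (SD, n = 3) in rli, differed by less than the spread (two-sided exact permutation test over arrays, p = 0.9; with groups of 3 it cannot go below 0.1). None of the 3 RLI loci had a named probe set, so the targeted gene gave no check of the labels. Of the leaf list 1 gene had a named probe set, RCA, which read 5613 to 6301 in WT and 4079 to 5571 in rli, separate groups with a difference of -0.39 ± 0.20 (limma adjusted p = 0.30). Of the root list 3 genes were tested, and they did not move alike. PYK10 read 855.3 to 1137 in WT and 1076 to 1254 in rli (0.21 ± 0.19, limma adjusted p = 0.60). JAL33 rose by 5.10 ± 0.73 (limma adjusted p = 0.0032), from 4.64, 7.13 and 51.4 in WT to between 299.1 and 531.4 in rli, and AT5G44020 fell by 1.15 ± 0.26 (limma adjusted p = 0.030). The call of AT5G44020 was lost in 6 of 16 alternatives (highest adjusted p = 0.20, after median centring), and the size of the JAL33 rise is uncertain, since its WT mean lay below the filter level. The part of organ make-up in the values below was not tested. The floral list had 0 named probe sets.

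Each of the 6 NRPB genes had a lower mean in rli, by -0.11 to -0.84 on the log2 scale, with a median of -0.61 against 0.04 over all tested probe sets. NRPB7, NRPB9A, NRPB9B and NRPB12 stood at 55.7% to 65.7% of their WT level, and both NRPB6 copies at 82.5% and 92.4%. In 5 of the 6 the WT and rli arrays did not overlap, where 12.9% of all tested probe sets were separate with rli lower. By limma with Benjamini-Hochberg adjustment over all tested probe sets, 0 of the 6 passed the threshold, against 6.80% of all tested, and 4 of the 6 had an unadjusted p under 0.05, against 21.1%. The contrast is the one through which the family was proposed, so nothing is read from these shares.

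**Figure D1:**
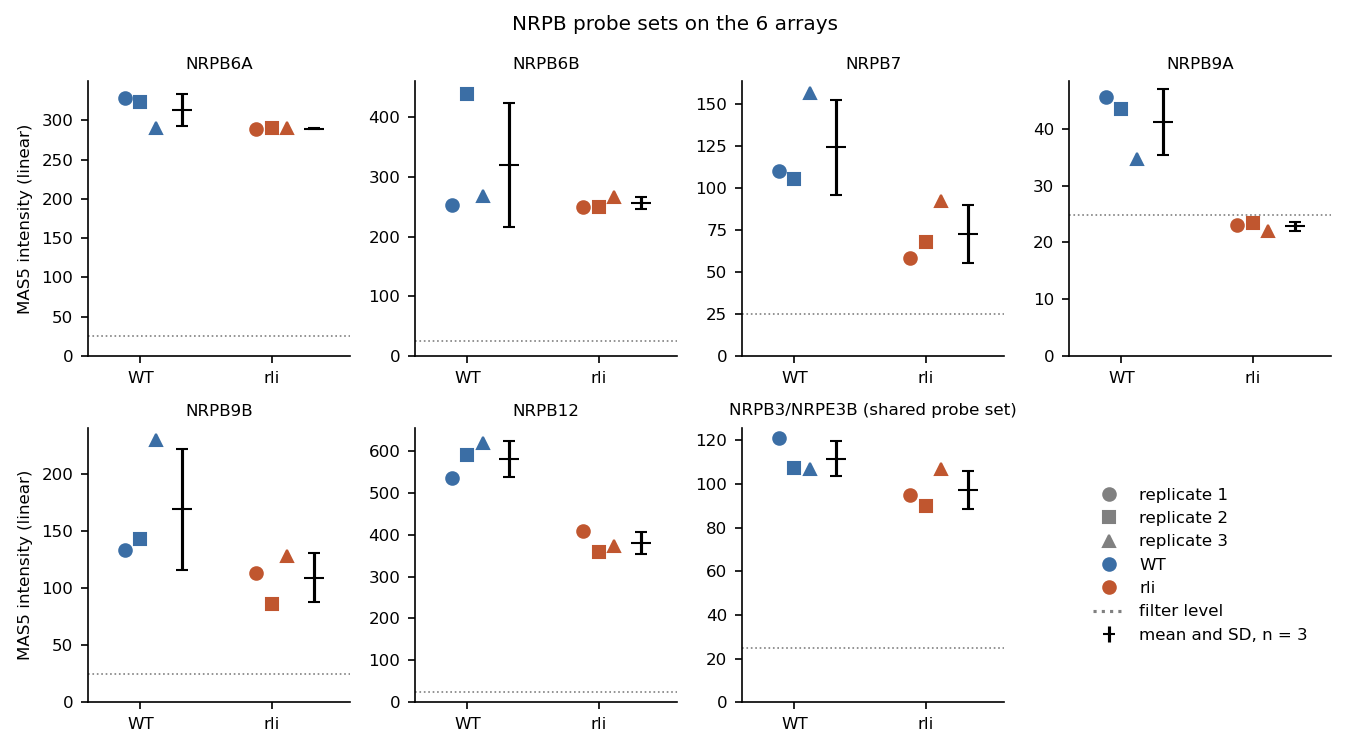
MAS5 intensity (linear axis from 0) of each NRPB probe set on the 3 WT (blue) and 3 rli (orange) arrays, with the mean and SD of each group in black and the filter level of 24.7 dotted. All 3 rli values lie below all 3 WT values for NRPB6A, NRPB7, NRPB9A, NRPB9B and NRPB12, by under 1 unit for NRPB6A, and the groups overlap for NRPB6B and for the probe set shared by NRPB3 and NRPE3B.

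NRPB7 (AT5G59180) pairs with NRPB4 in the stalk of the enzyme, which sits near the RNA exit, and is the 1 member without an alias as a subunit of polymerase IV or V in the gene table. In the order of the replicate numbers, kept for every gene below, it read 110.4, 105.3 and 156.8 in WT and 58.3, 68.0 and 92.0 in rli. The highest rli array lay 13.3 below the lowest WT array, and WT replicate 3 was the highest of all. The group means were 124.2 ± 28.4 and 72.8 ± 17.4 (SD, n = 3), a difference of -0.77 ± 0.25. Without WT replicate 3 the difference was -0.59 ± 0.24.

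NRPB9 is a small zinc-binding subunit that acts in start site choice and transcript fidelity in yeast, and both Arabidopsis copies also carry aliases as subunits of polymerases IV and V. NRPB9A (AT3G16980) read 45.6, 43.6 and 34.7 in WT and 23.1, 23.4 and 21.9 in rli. The 3 rli arrays lay close to each other and below the filter level, so NRPB9A was a dim signal in rli. Its difference of -0.84 ± 0.37 was the largest of the family and had the widest error of the fit. That error also draws on other probe sets of similar intensity. On the log2 scale the SD of NRPB9A itself was 0.21 in WT and 0.05 in rli. Without WT replicate 3, here the lowest WT array, it was -0.97 ± 0.36.

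NRPB9B (AT4G16265) read 133.5, 143.2 and 229.8 in WT and 112.9, 86.1 and 128.3 in rli. WT replicate 3 lay far above the other WT arrays, while the lowest WT array lay 5.18 above the highest rli array. The difference was -0.61 ± 0.26 with all arrays and -0.36 ± 0.21 without WT replicate 3. Of the 6 members, NRPB9B depended most on that array, with a value 1.68 times as large with it as without.

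NRPB12 (AT5G41010) encodes a small zinc-binding subunit shared by all the nuclear polymerases. It read 533.7, 590.3 and 618.3 in WT and 408.8, 357.4 and 373.4 in rli. The lowest WT array lay 124.9 above the highest rli array, and both groups spread little, with coefficients of variation of 7.42% and 6.91%. The difference was -0.61 ± 0.18, the smallest error among the 4 members at or below -0.60, and -0.57 ± 0.16 without WT replicate 3.

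NRPB6 is likewise shared by all the nuclear polymerases. NRPB6A (AT5G51940) read 328.0, 322.9 and 290.4 in WT and 289.3, 289.9 and 289.7 in rli. The 3 rli arrays spread by a coefficient of variation of 0.11%, and WT replicate 3 lay 0.50 above the highest of them, so that the groups were separate only by that margin. The difference of -0.11 ± 0.17 was smaller than the error of the fit, which also draws on other probe sets. NRPB6B (AT2G04630) read 252.3, 439.1 and 268.4 in WT and 250.3, 249.8 and 267.0 in rli. WT replicate 2 alone stood high, the other 5 arrays lay between 249.8 and 268.4, and the groups overlapped. Its difference of -0.28 ± 0.24 fell to -0.03 without WT replicate 2.

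The probe set shared by NRPB3, a subunit on which the core is assembled, and NRPE3B, its copy in polymerase V, cannot tell the 2 genes apart. It read 120.8, 107.1 and 106.6 in WT and 94.7, 89.8 and 106.8 in rli, with overlapping groups. The difference was -0.20 ± 0.19 (limma adjusted p = 0.62).

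**Figure D2:**
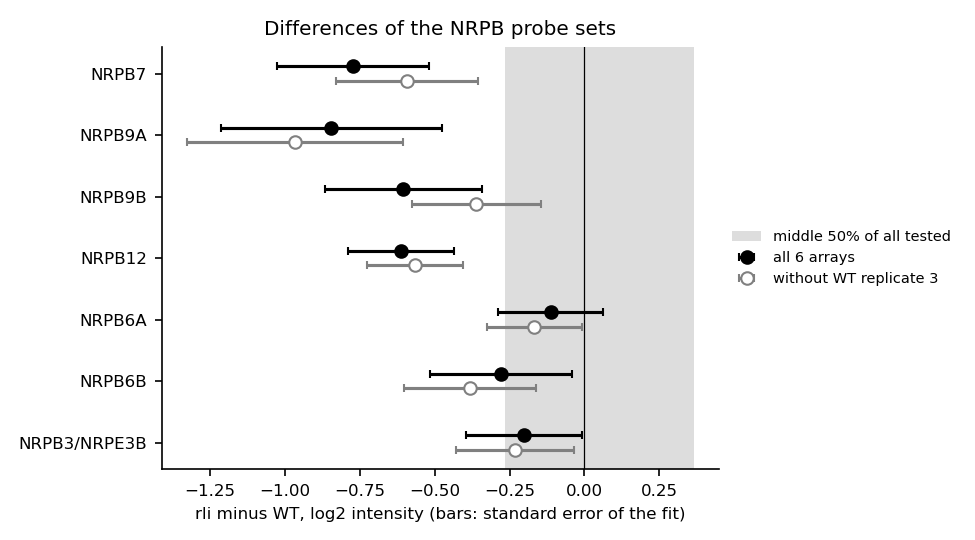
Difference of rli minus WT (log2 intensity, bars are the standard error of the limma fit) for the 6 NRPB genes and the probe set shared by NRPB3 and NRPE3B, with all 6 arrays (filled) and without WT replicate 3 (open). The grey band is the middle 50% of all tested probe sets, from -0.27 to 0.36. With all arrays NRPB7, NRPB9A, NRPB9B and NRPB12 lie to the left of the band. NRPB6B, at -0.28, lies just left of its edge, and NRPB6A and the shared probe set lie within it.

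The members differed in which array set them high or low. After each gene was centred on its own mean, the average over the 6 genes was 0.16, 0.31 and 0.33 on the WT arrays and -0.29, -0.35 and -0.17 on the rli arrays. The medians of all tested probe sets, centred in the same way, lay between -0.04 and 0.06. WT replicate 3 was the highest array for 3 members (NRPB7, NRPB9B and NRPB12), WT replicate 1 for NRPB6A and NRPB9A, and WT replicate 2 for NRPB6B. The lowest array was always of rli: replicate 1 for NRPB6A and NRPB7, replicate 2 for NRPB6B, NRPB9B and NRPB12, and replicate 3 for NRPB9A.

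**Figure D3:**
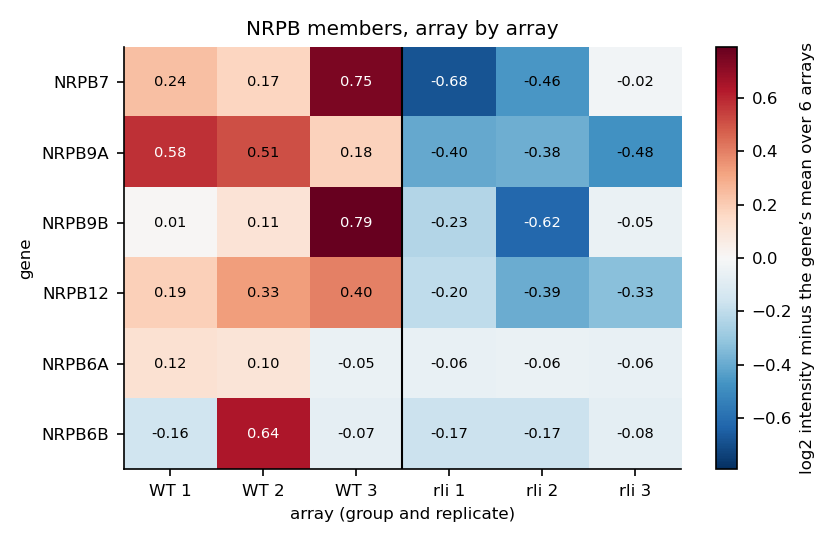
Log2 intensity of each NRPB gene (rows) on each array (columns), minus the gene's mean over the 6 arrays, with the value written in each cell. NRPB7 and NRPB9B are highest on WT replicate 3, at 0.75 and 0.79, where NRPB9A, at 0.18, has its lowest WT value, and NRPB6B is high on WT replicate 2 alone, at 0.64.

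Over the 6 arrays as measured, Pearson's r between members lay between 0.10 (NRPB6A with NRPB9B) and 0.88 (NRPB7 with NRPB9B), with a mean of 0.57 over the 15 pairs. All members share the same arrays, and the group difference through which the family was proposed enters each of these values. When each group's mean was removed, r lay between -0.91 (NRPB9A with NRPB9B) and 0.97 (NRPB6A with NRPB9A), with a mean of -0.11, and 8 of the 15 pairs were below 0. The mean over all pairs of tested probe sets was 0.01. Within groups the 6 genes did not move as 1 block on these arrays, as far as r over 6 arrays can show. The values of r are not given without WT replicate 3, which stood apart, so how far they rest on it was not tested. NRPB7, NRPB9B and NRPB12 were all highest on that array, and NRPB6A and NRPB9A were both low there relative to the other WT arrays.

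The balance of the duplicated copies was read array by array. The log2 ratio of NRPB9A to NRPB9B signal was -1.55, -1.72 and -2.73 on the WT arrays and -2.29, -1.88 and -2.55 on the rli arrays. The groups overlapped, with means of -2.0 ± 0.64 and -2.24 ± 0.34 (SD, n = 3). The ratio of NRPB6A to NRPB6B was 0.38, -0.44 and 0.11 in WT and 0.21, 0.21 and 0.12 in rli, again with overlap. These ratios compare 1 pair of probe sets between arrays. They do not give the relative abundance of the 2 transcripts, since each probe set has its own brightness.

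By Pearson's r over the 6 arrays with the mean of the centred members, the 5 most similar of 1063 tested probe sets with a gene symbol were ATG8H, CYTC6A, CCOAMT, CSLA03 and KIWI, at 0.99, 0.99, 0.99, 0.98 and 0.97. ATG8H (AT3G06420) is an autophagy gene, CSLA03 (AT1G23480) a cellulose synthase-like gene, and CYTC6A (AT5G45040) encodes a thylakoid cytochrome. CCOAMT (AT1G67980) encodes an O-methyltransferase. KIWI (AT5G09250) encodes a relative of a transcriptional coactivator. The median r over all 1063 was -0.07, and 2.54% were over 0.9. The mean of the members is itself lower on every rli array, so a high r selects genes that are lower in rli, and their differences are given without a test. They stood at -0.96 ± 0.22 for ATG8H, -1.33 ± 0.21 for CYTC6A, -1.42 ± 0.25 for CCOAMT, -0.92 ± 0.19 for CSLA03 and -0.56 ± 0.19 for KIWI.

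The other genes of transcription were read from 6 lists of 147 loci in all, of which 35 had a named probe set and 31 were tested. By limma with adjustment over all tested probe sets, 1 of the 31 rose and 0 fell, against 4.27% and 2.53% of all tested, and 5 had an unadjusted p under 0.05, or 16.1% against 21.1% of all tested. The groups did not overlap in 10 of the 31, with rli higher in 6 and lower in 4, against 28.1% separate in either direction among all tested. Their median difference was 0.18, and 12 of the 31 had a lower mean in rli, or 38.7%, against 46.7% of all tested probe sets.

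Among subunits of the other nuclear polymerases, 0 of 5 tested changed by limma and 0 had an unadjusted p under 0.05, against 6.80% and 21.1% of all tested, and the median was 0.06. NRPE7 (AT4G14660), the counterpart of NRPB7 in polymerase V, read 75.7, 65.1 and 61.4 in WT and 59.3, 40.2 and 44.2 in rli. The groups were separate, with a difference of -0.51 ± 0.26 (limma adjusted p = 0.30). NRPD7 (AT3G22900), named after its values were seen as the counterpart in polymerase IV, stood at -0.03 ± 0.32. The large subunits of polymerase I stood at 0.40 ± 0.24 for NRPA2 (limma adjusted p = 0.39) and 0.31 ± 0.32 for NRPA1, and NRPC2, the second subunit of polymerase III, at 0.06 ± 0.30. NRPC1 lay below the filter level. With 3 arrays per group, missing the threshold does not show that a gene stayed the same.

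Of 6 tested general transcription factors, which place polymerase II at promoters, 1 rose and 0 fell, against 4.27% and 2.53% of all tested. By limma 4 of the 6 had an unadjusted p under 0.05, or 66.7% against 21.1% of all tested. The groups did not overlap in 4 of the 6, with rli higher in 2 and lower in 2, against 28.1% of all tested. The median was -0.10. The gene that rose, AT1G12400, read 5.95, 18.8 and 21.5 in WT and 109.0, 105.2 and 127.1 in rli. Every rli array was far above every WT array, and all 3 WT arrays lay below the filter level, so the gene was tested only through its rli values. Its difference was 3.08 ± 0.48 (limma adjusted p = 0.0052), and 2.87 with low values raised to a floor, so the size is uncertain while the call held in each of the 15 alternatives that tested it (adjusted p from 2.3e-05 to 0.041). In the fit that leaves out WT replicate 3, where 15.3% of all tested probe sets passed, 3 members passed, with AT4G20330 higher and AT1G75510 lower in rli besides. Both were named after their values were seen.

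Of 17 tested Mediator genes, whose products bridge transcription factors and polymerase II, 0 changed by limma, against 6.80% of all tested, and 1 had an unadjusted p under 0.05, or 5.88% against 21.1%. The median was 0.18. AT1G26665 read 218.0, 260.5 and 229.1 in WT and 318.8, 340.7 and 378.6 in rli, with separate groups and a difference of 0.55 ± 0.18 (limma adjusted p = 0.11). AT1G23230 stood at 0.66 ± 0.30 (limma adjusted p = 0.24). The elongation list had 1 tested gene, AT5G08565 (SPT4-1), a transcription elongation factor, at 0.52 ± 0.36 (limma adjusted p = 0.47). Of the genes for assembly and nuclear import of the polymerase, QQT2 stood at 0.39 ± 0.27 (limma adjusted p = 0.46) and IYO at 0.47 ± 0.48 (limma adjusted p = 0.65). The WT mean of IYO lay below the filter level, so IYO was tested only through its rli values. The list of partners of polymerases IV and V had 0 named probe sets.

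**Figure D4:**
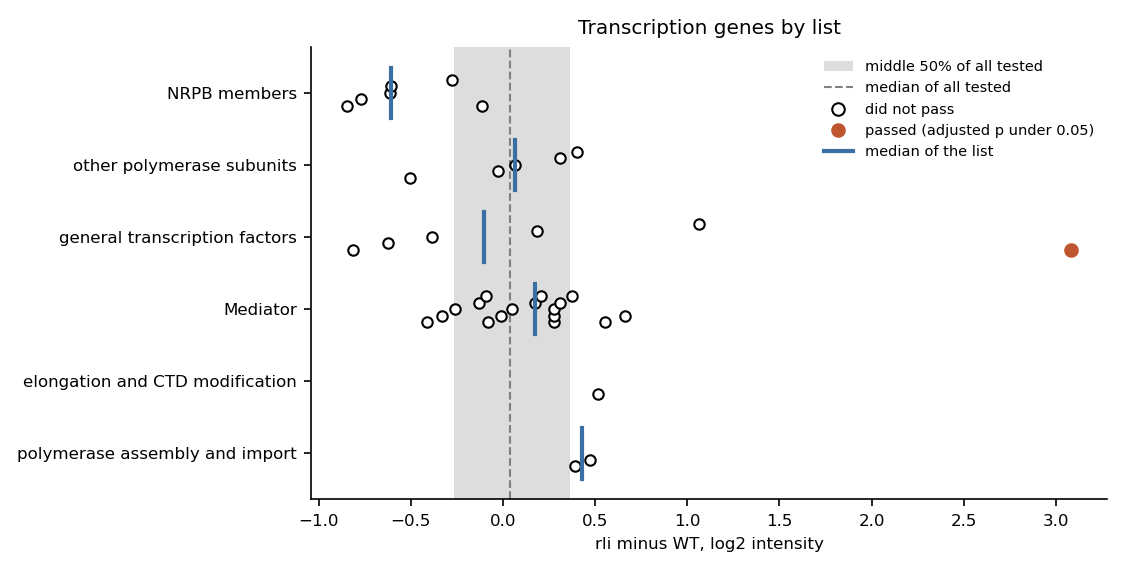
Difference of rli minus WT (log2 intensity) for each tested gene (points) of the NRPB members and of 5 lists of other transcription genes, with the median of each list of at least 2 genes as a blue bar. The grey band is the middle 50% and the dashed line the median, 0.04, of all tested probe sets. AT1G12400, at 3.08, is the 1 gene past the threshold (orange), and the NRPB members, a family proposed from this difference, lie at -0.11 and lower.

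**Figure D5:**
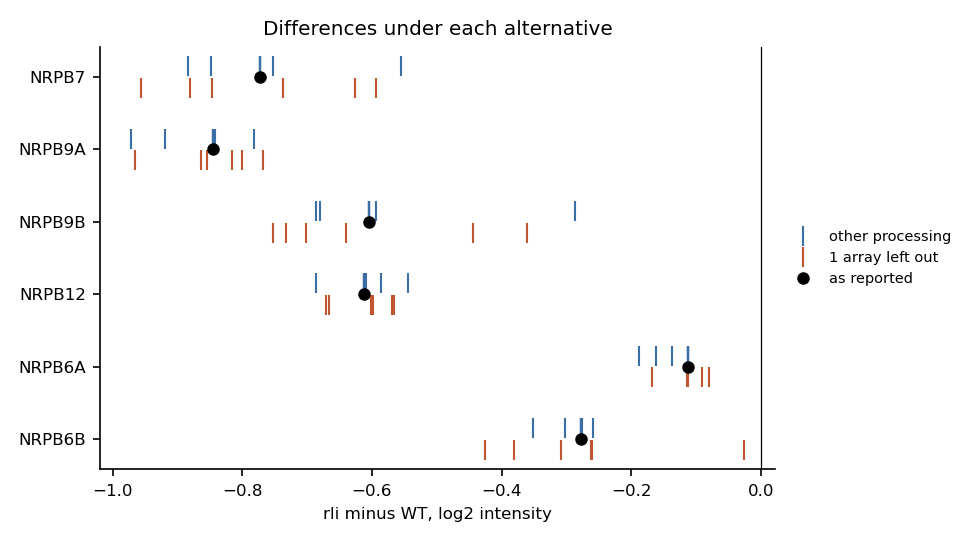
Difference of rli minus WT (log2 intensity) of each NRPB gene as reported (black), with other processing (blue) and with 1 array left out (orange). No value lies above 0. NRPB12 stays between -0.69 and -0.54, and NRPB9B runs from -0.75 to -0.29.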

How the data were processed

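Intensities were read from the deposited value table. Per the submitters' processing notes the authors used MAS5 and GCOS (the version of each is not given in the sources used here). A mean trimmed by 2% at each end was equal on all arrays, so the values were used as deposited, on the log2 scale. The array medians were not equal. They were 35.8, 36.6 and 53.0 on the WT arrays and 45.7, 38.2 and 46.3 on the rli arrays. Detection calls were not used here. Groups and replicate numbers come from the sample titles. The array's gene table gave 1 gene for 13513 of 22810 probe sets and several for 503. The 64 controls and probe sets under the 40th percentile of mean log2 intensity (4.63) were left out. The fit was made in R 4.3.3 with limma 3.58.1 (lmFit, eBayes with trend, genotype alone, two-sided, Benjamini-Hochberg, threshold 0.05). A run on simulated data asked only whether shifts larger than those of the members, added to independent normal noise, were recovered. The simulated data held no array that stood apart. The number of arrays limits the precision.

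The members and lists were chosen with earlier results of these data known. Named genes are all NRPB probe sets, in each list the 2 largest changes each way that passed or else the 2 smallest p, and the 5 most similar patterns. NRPA1, NRPC2, NRPC1 and the leaf and root markers, planned as counts, are named outside this rule. So are the genes said to be named after their values were seen. Planned protein and promoter descriptions are not reported here. Figures used matplotlib 3.10.9.

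Alternatives to these choices were no filter, or one at the 20th or 60th percentile; median centring; quantile normalization; a pseudocount at the 10th percentile of all values (2.45); low values raised to the 20th percentile (9.34); array weights; eBayes without trend; a block for replicate number; and the fit without each array in turn.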

Additional observations from a re-analysis of the deposited data

How the results depend on the processing

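Each of the 6 members stayed lower in rli in all alternatives that tested it, 16 for each member but NRPB9A, which the filter at the 60th percentile removed. The members' median of -0.61 was -0.42 with array weights, and -0.71 to -0.47 with each array left out, the last without WT replicate 3. The array weights gave WT replicate 3 the lowest weight, 0.19. Members past the threshold numbered 2 with array weights (NRPB9A, dim in rli, and NRPB12), where 23.3% of all tested probe sets passed. With each array left out they numbered 0 to 1, the 1 being NRPB12 without WT replicate 3, where 15.3% passed. The family was proposed from this contrast, so these counts are no support. Against 928 probe sets changed in all, median centring gave 332, no intensity trend 593 and array weights 3181, and leaving out each array 389 to 2085. The 1 other transcription gene past the threshold became 0 with the filter at the 60th percentile, where AT1G12400 was not tested, and 5 with array weights (AT4G24440, AT4G20330, AT1G75510 and AT1G26665 besides, named after their values were seen). Leaving out each array gave 1 to 3. With the replicate number as a block 9.53% of all tested probe sets passed. The count of other transcription genes was then 2, AT4G20330 being gained, and 0 of the 6 members passed. The deviations of same-numbered WT and rli samples correlated at -0.09, 0.33 and 0.32. Between WT and rli samples of different numbers the values lay from -0.36 to 0.27. Whether same-numbered samples share more than a number was not tested. The causes were not tested. No member's probe set ends in _s_at or _x_at, and leaving such probe sets out changed neither the members' median nor the count of other genes.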
